A study of Mus musculus with 10 samples.

Results

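A set of 9 genes known from blood stem cells was followed through mouse bone marrow progenitors by ATAC-seq, which maps open chromatin with a transposase. The genes were Hlf, Mllt3, Msi2, Angpt1, Procr, Fgd5, Tek, Slamf1 and Vwf, a list chosen by name and not by these measurements. The regions studied, called their members, were the accessible regions centred inside the gene's annotated span or within 50 kb of it. Of 114366 merged regions on chromosomes 1 to 19 and X, 190 met this rule, 131 of them centred inside a listed gene and 59 in the flanks. For 156 of the 190 the listed gene was the nearest protein-coding gene, so 34 regions lay closer to, or inside, a neighbour.

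The 10 libraries formed 5 groups of 2, each made from bone marrow cells of C57BL/6 mice, sorted by flow cytometry after magnetic selection. Wild-type LT-HSC, the long-term repopulating stem cells, were sorted as Lin– CD117+ Sca-1+ CD135– CD48– CD150+. Wild-type LMPP, the multipotent progenitors with a lymphoid bias, were sorted as Lin– CD117+ Sca-1+ CD135+, and their cell type label names short-term stem cells while their titles name LMPP. IRF8KO MDP and wild-type (WT) MDP, the progenitors of monocytes and dendritic cells, shared the gate Lin– Sca-1– CD117+ IL-7R– CD115+. Wild-type CDP, the progenitors committed to dendritic cells, were sorted in the same way except that CD117 was intermediate (CD117int) and CD135 was required (CD135+). The knockout group is labelled IRF8-deficient with no allele given, and neither the animals' ages nor the animals behind each library are stated, so the spread between the 2 libraries of a group may be partly technical. A peak from a sorted pool cannot tell fewer cells with an open site from less opening in each cell.

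Blood stem cells keep a quiescent, self-renewing state with a small set of nuclear regulators, and they are recognised by surface proteins that later progenitors lack. HLF is a PAR bZIP transcription factor that holds stem cells in quiescence, MLLT3 (AF9) is a chromatin reader of the elongation machinery that supports stem cell maintenance, and MSI2 is an RNA-binding protein that regulates translation in stem cells. ANGPT1 is the ligand of the receptor tyrosine kinase TEK (Tie2), a pair known for stem cell quiescence and for blood vessel stability. PROCR is the endothelial protein C receptor, SLAMF1 is CD150, the antigen of the stem cell gate, FGD5 is a guanine nucleotide exchange factor, and VWF is the clotting glycoprotein whose gene marks platelet-biased stem cells. Procr, Fgd5, Tek and Vwf are also genes of endothelial cells.

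LT-HSC replicate 1 stood apart in the length of its peak list and in its share of tags in peaks. Its list held 31325 peaks with 19.32% of tags in peaks, against 52147 peaks and 38.06% in LT-HSC replicate 2 and 50728 to 69598 peaks and 43.72% to 53.74% in the other 8 libraries. Total tags ranged from 4790046 to 10166833, and LT-HSC replicate 1, with 5479825, was not the lowest. Counts of gained and lost regions against LT-HSC, of regions in every library and of regions in LT-HSC alone are therefore given with and without that library. Of all merged regions, 26.4% and 44.3% were detected in LT-HSC, 53.8% and 54.6% in LMPP, 42.5% and 45.8% in IRF8KO MDP, 52.4% and 54.2% in WT MDP, and 59.7% and 55.9% in CDP. The counts below are to be read beside these shares, which were lowest in LT-HSC replicate 1. Counts of open regions at the genes of the sorting antigens followed the gates at Cd48 and ran the other way at Kit and Ly6a. Of 18 regions at Cd48, 0 and 4 were detected in LT-HSC, sorted as CD48–, and 12 to 14 in WT MDP and CDP. Of 37 regions at Flt3, which encodes CD135, 11 and 17 were detected in LT-HSC, sorted as CD135–. In LMPP and CDP, sorted as CD135+, 20 and 19 and 21 and 21 were detected. WT MDP, whose gate does not name CD135, had 20 and 19. The shares of all regions were also higher in these 3 groups than in LT-HSC. Of 21 regions at Kit, which encodes CD117, 1 and 4 were detected in LT-HSC, sorted as CD117+, and 15 and 12 in CDP, sorted as CD117int. Of 11 regions at Ly6a, which encodes Sca-1, 4 and 3 were detected in LT-HSC, sorted as Sca-1+, and 9 and 8 in CDP, sorted as Sca-1–. Csf1r encodes CD115, which the LT-HSC gate does not name, and had 3 and 7 of 17 in LT-HSC and 13 and 13 in CDP. Among defining genes of other cell types, Cdh5 of endothelium had 4 and 7 of 19 regions detected in LT-HSC and 9 to 15 in WT MDP and CDP, and Gata1 of the red cell lineage had 3 and 3 of 6 in LT-HSC and 2 to 3 elsewhere. Over full marker lists, 27.0% to 47.4% of 196 endothelial regions were detected in LT-HSC, 55.1% to 59.2% in LMPP, 51.5% to 52.0% in IRF8KO MDP, 56.6% to 58.7% in WT MDP and 58.7% to 62.8% in CDP. Of 129 erythroid regions, 47.3% to 66.7% were detected in LT-HSC, 36.4% to 38.0% in IRF8KO MDP and 51.9% to 57.4% in the other groups. Of 136 megakaryocyte regions, 39.0% to 57.4% were detected in LT-HSC, 44.9% to 51.5% in IRF8KO MDP and 55.9% to 64.7% in the other groups. Beside the shares of all regions, LT-HSC lay near them for the endothelial list and above them in each library for the erythroid and megakaryocyte lists. IRF8KO MDP lay below them for the erythroid list and above them for the endothelial and megakaryocyte lists. The part of such cells in the results was not tested.

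The sequence upstream of each annotated start is shown for 6 of the genes, because the starts ranged from open in every library, through open in some libraries of most groups (Procr and Fgd5), to open in LT-HSC or LMPP only. Each line gives the 250 bases before the start, from RefSeq on GRCm38.p6 (the assembly of mm10), 5′ to 3′ on the gene's strand. Capitals mark matches to any of 8 motifs searched on both strands. The GATA motif was AGATAA, the ETS motif was AGGAAG, the RUNX motif was TGTGGT and the MEIS motif was TGACAG. The E-box was CAGCTG, which is its own reverse complement, so that each match counts once. The PAR bZIP motif was TTANNTAA, the IRF motif was GAAA followed after any 2 bases by another GAAA, and the ETS-IRF motif, which can overlap the IRF motif, was GGAA followed after any 2 bases by GAAA.
Hlf, chr11:90390918-90391167, minus strand: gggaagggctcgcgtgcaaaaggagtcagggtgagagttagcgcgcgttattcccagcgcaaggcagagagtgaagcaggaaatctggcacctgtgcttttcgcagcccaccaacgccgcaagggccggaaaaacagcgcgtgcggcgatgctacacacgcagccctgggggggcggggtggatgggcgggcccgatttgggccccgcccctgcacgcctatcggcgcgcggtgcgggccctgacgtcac
Mllt3 outer start, chr4:88033408-88033657, minus strand: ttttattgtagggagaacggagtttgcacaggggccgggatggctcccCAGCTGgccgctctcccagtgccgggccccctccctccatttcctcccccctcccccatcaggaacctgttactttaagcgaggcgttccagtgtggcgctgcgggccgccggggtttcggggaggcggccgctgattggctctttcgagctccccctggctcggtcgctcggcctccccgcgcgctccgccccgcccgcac
Mllt3 inner start, chr4:87806324-87806573, minus strand: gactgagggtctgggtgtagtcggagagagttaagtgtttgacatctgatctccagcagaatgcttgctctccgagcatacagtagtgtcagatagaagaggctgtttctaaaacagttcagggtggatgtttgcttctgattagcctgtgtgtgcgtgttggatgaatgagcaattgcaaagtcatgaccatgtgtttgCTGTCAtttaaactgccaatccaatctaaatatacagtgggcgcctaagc
Procr, chr2:155750967-155751216, plus strand: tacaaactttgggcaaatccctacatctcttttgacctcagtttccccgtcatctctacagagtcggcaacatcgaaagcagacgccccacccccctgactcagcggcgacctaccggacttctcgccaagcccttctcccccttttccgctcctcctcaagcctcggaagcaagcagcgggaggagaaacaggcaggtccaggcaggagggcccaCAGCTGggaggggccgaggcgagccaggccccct
Fgd5, chr6:91978715-91978964, plus strand: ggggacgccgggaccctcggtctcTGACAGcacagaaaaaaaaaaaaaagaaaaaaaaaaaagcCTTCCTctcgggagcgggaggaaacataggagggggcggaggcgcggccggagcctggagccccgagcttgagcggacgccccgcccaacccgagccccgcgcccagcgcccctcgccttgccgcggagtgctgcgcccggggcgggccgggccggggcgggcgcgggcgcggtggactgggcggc
Tek, chr4:94739039-94739288, plus strand: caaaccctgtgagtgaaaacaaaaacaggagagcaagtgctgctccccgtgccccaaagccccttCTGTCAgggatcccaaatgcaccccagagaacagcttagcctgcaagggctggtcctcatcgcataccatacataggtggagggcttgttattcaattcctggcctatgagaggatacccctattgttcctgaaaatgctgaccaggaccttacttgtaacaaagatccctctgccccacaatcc
Slamf1, chr1:171766882-171767131, plus strand: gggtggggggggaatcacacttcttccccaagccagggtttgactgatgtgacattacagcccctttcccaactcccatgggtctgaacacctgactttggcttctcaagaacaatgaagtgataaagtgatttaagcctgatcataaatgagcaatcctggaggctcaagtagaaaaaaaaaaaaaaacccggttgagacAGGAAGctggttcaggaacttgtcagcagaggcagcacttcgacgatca

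The windows of Hlf, the outer Mllt3 start and Msi2, whose 3 overlapping windows are not printed, lay wholly inside a peak in all 10 libraries. They were rich in CpG, with 26 CpG dinucleotides at Hlf, 23 at the outer Mllt3 start and 29 to 30 at Msi2, against a median of 6 over 32585 promoter windows of the same length. Among the windows with a peak in at most 4 libraries, the inner Mllt3 start had 4 CpG, Tek 2 and Slamf1 3. Their GC contents were 45.2%, 51.2% and 47.2%, against a median of 52.4% over all windows. Procr, with 13 CpG, had a peak over part or all of its window in 7 libraries. Fgd5, with 31, had one in 4, namely LT-HSC replicate 2, both LMPP libraries and CDP replicate 1, and none in WT MDP or IRF8KO MDP. The Fgd5 window thus shared the base composition of the always-open starts, yet had a peak in as few libraries as that of Tek.

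Motif matches were few. The inner Mllt3 start held TGACAG from base 50 to base 45 upstream, and Tek held it from 185 to 180, both on the strand opposite the gene, so the printed letters read as its reverse complement. Fgd5 held it from 226 to 221 on the gene's strand. That motif was present in 15.6% of all windows. CAGCTG was found in the outer Mllt3 window (202 to 197) and at Procr (34 to 29), and in 13.1% of all windows, and AGGAAG at Fgd5 (186 to 181, on the opposite strand) and Slamf1 (49 to 44), and in 29.6% of all windows. The other 5 motifs had no match in the 10 windows of the 7 genes with an annotated start. Over all windows, GATA letters were found in 10.0%, RUNX letters in 13.9%, PAR bZIP letters in 5.37%, IRF letters in 2.98% and ETS-IRF letters in 2.32%. A match is a run of letters and not an occupied site.

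At the regions over the starts, the row of a peak within its deposited list is given as a percent of the list length, with 0 at the top of the file. Between the replicates of a group this position correlated across shared regions with a Spearman coefficient of 0.883 to 0.946, a description across regions, and no file says what the rows were sorted by. The Hlf start region (chr11:90387339-90391465, 4127 bp) stood at 26.6% and 11.6% in LT-HSC, 6.2% and 5.5% in LMPP, 29.1% and 23.9% in IRF8KO MDP, 16.1% and 18.8% in WT MDP, and 22.1% and 10.1% in CDP. Both LMPP libraries thus placed it nearer the top than any other library. The outer Mllt3 start (chr4:88030667-88036052, 5386 bp) stood within the first 3.6% of rows in LT-HSC replicate 2 and in all LMPP, WT MDP and CDP libraries, at 12.2% and 6.9% in IRF8KO MDP, and at 14.5% in LT-HSC replicate 1. The region over the upper end of Angpt1 (chr15:42673933-42678330, 4398 bp) stood within the first 5.5% of rows in 9 libraries and at 11.3% in IRF8KO MDP replicate 1.

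The Tek start region (chr4:94738738-94740017) was detected at 70.3% and 34.6% in LT-HSC and at 40.9% and 43.3% in LMPP, and in none of the 6 libraries of IRF8KO MDP, WT MDP and CDP. The inner Mllt3 start (chr4:87806105-87806983), which lies 226.9 kb into the gene, was detected in both LT-HSC libraries (52.9% and 31.3%) and in LMPP replicate 1 (77.6%), and in no other library. The region over the lower end of Vwf (chr6:125552626-125553622) was detected in the LT-HSC pair alone, at 82.0% and 40.7%. At Slamf1 the start region (chr1:171766948-171767448) was detected in LMPP replicate 1 only, and in neither library of LT-HSC, the cells sorted on the CD150 protein that this gene encodes. The start region of Fgd5 (chr6:91978412-91980310), which is wider than the printed window, was detected in 8 libraries and that of Procr (chr2:155750831-155751943) in 7. Both were missing from LT-HSC replicate 1 and from 1 library of IRF8KO MDP.

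**Figure D1:**
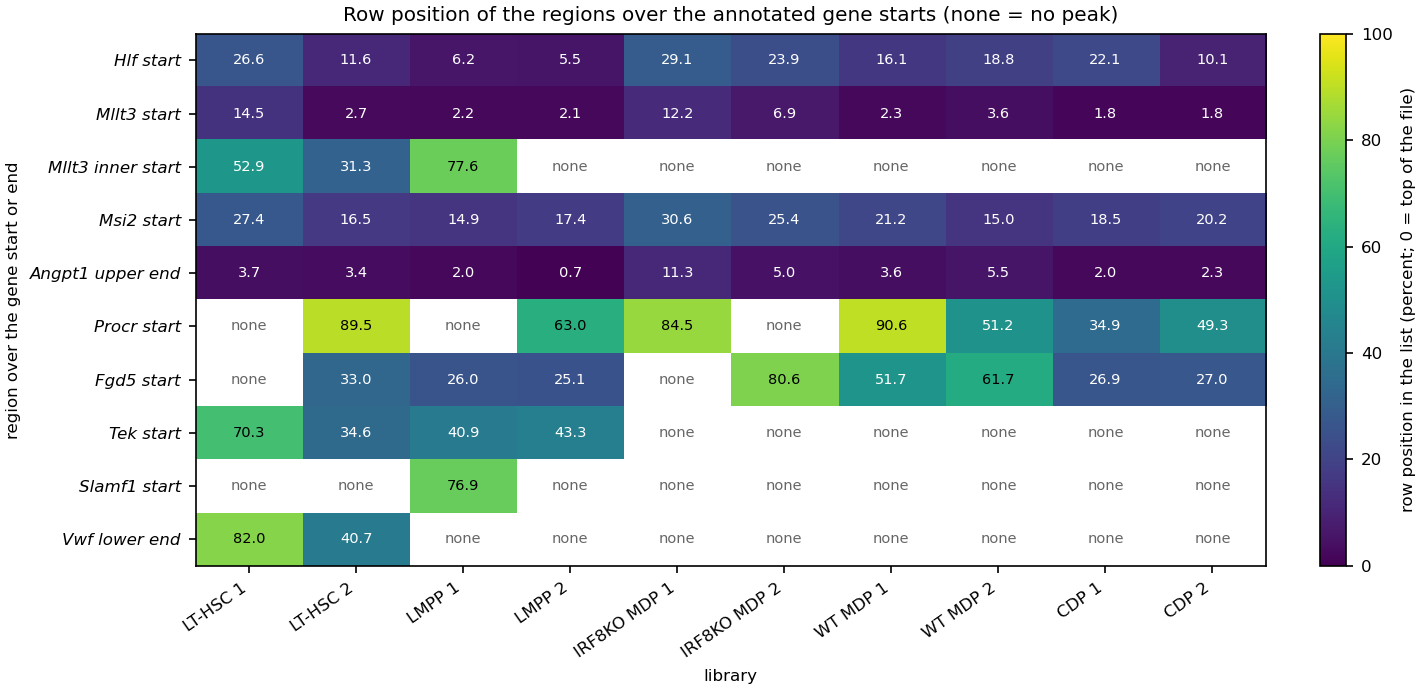
Row position of the region over each annotated start, or over the gene end where Angpt1 and Vwf have no start in the table (rows), in each library (columns); the value in a cell is the percent of the list above the peak, and "none" means no peak. Hlf, the outer Mllt3 start, Msi2 and Angpt1 are filled across all 10 libraries, whereas Tek is filled in the 4 LT-HSC and LMPP libraries and the lower end of Vwf in the 2 LT-HSC libraries.

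Regions shared by all libraries were a minority at these genes. Of the 190 regions, 19 were detected in all 10 libraries (10.0%, against 17.0% of all merged regions) and 53 in a single library (27.9%, against 19.1%). Leaving out LT-HSC replicate 1, 27 were detected in every library (14.2%, against 21.5%). Those in all 10 had a median width of 1644 bp, those in 2 to 9 libraries 766 bp and those in 1 library 501 bp, and their median row positions were 21.3%, 61.5% and 87.3%. Angpt1 and Msi2 had 4 such shared regions each, Fgd5 and Vwf 3 each, Hlf and Slamf1 2 each and Mllt3 1, while Procr and Tek had none. Single-library regions were most frequent at Angpt1 (15 of 31) and Msi2 (13 of 36).

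Replicate libraries shared the members less fully than they shared all regions in 4 of the 5 groups. The Jaccard index, regions in both libraries over regions in either, was 0.460 for the members and 0.567 for all regions in LT-HSC, 0.631 and 0.766 in LMPP, 0.734 and 0.754 in IRF8KO MDP, 0.691 and 0.772 in WT MDP, and 0.846 and 0.806 in CDP. CDP had the higher index for the members, and these differences were not tested. Of the 190 regions, 47 were detected in 1 of the 2 LT-HSC libraries and 45 in 1 of the 2 LMPP libraries, against 17 in IRF8KO MDP, 29 in WT MDP and 14 in CDP.

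In each library, the share of the 190 regions detected can be set beside the share of all 114366 regions detected there. The members' share was 21.6% and 45.3% in LT-HSC, 50% and 54.7% in LMPP, 28.9% and 29.5% in IRF8KO MDP, 39.5% and 44.2% in WT MDP, and 46.3% and 42.1% in CDP. The share of all regions was 26.4% and 44.3% in LT-HSC, 53.8% and 54.6% in LMPP, 42.5% and 45.8% in IRF8KO MDP, 52.4% and 54.2% in WT MDP, and 59.7% and 55.9% in CDP. The ratio of the first share to the second was 0.818 and 1.02 in LT-HSC, 0.929 and 1.003 in LMPP, 0.680 and 0.644 in IRF8KO MDP, 0.754 and 0.816 in WT MDP, and 0.775 and 0.754 in CDP. Every stem cell and LMPP library thus had a ratio above those of the knockout, WT MDP and CDP libraries, the closest pair being LT-HSC replicate 1 and WT MDP replicate 2. With each list cut to the 31325 rows of the shortest, the members' share was 21.6% and 24.7% in LT-HSC, 23.7% and 24.7% in LMPP, 18.9% and 18.4% in IRF8KO MDP, 16.8% and 15.8% in WT MDP, and 20% and 19.5% in CDP, and LT-HSC and LMPP again lay above the other 6 libraries. With 2 libraries against 2, a two-sided exact permutation test cannot give a p below 1 in 3, so these comparisons are given without a p.

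**Figure D2:**
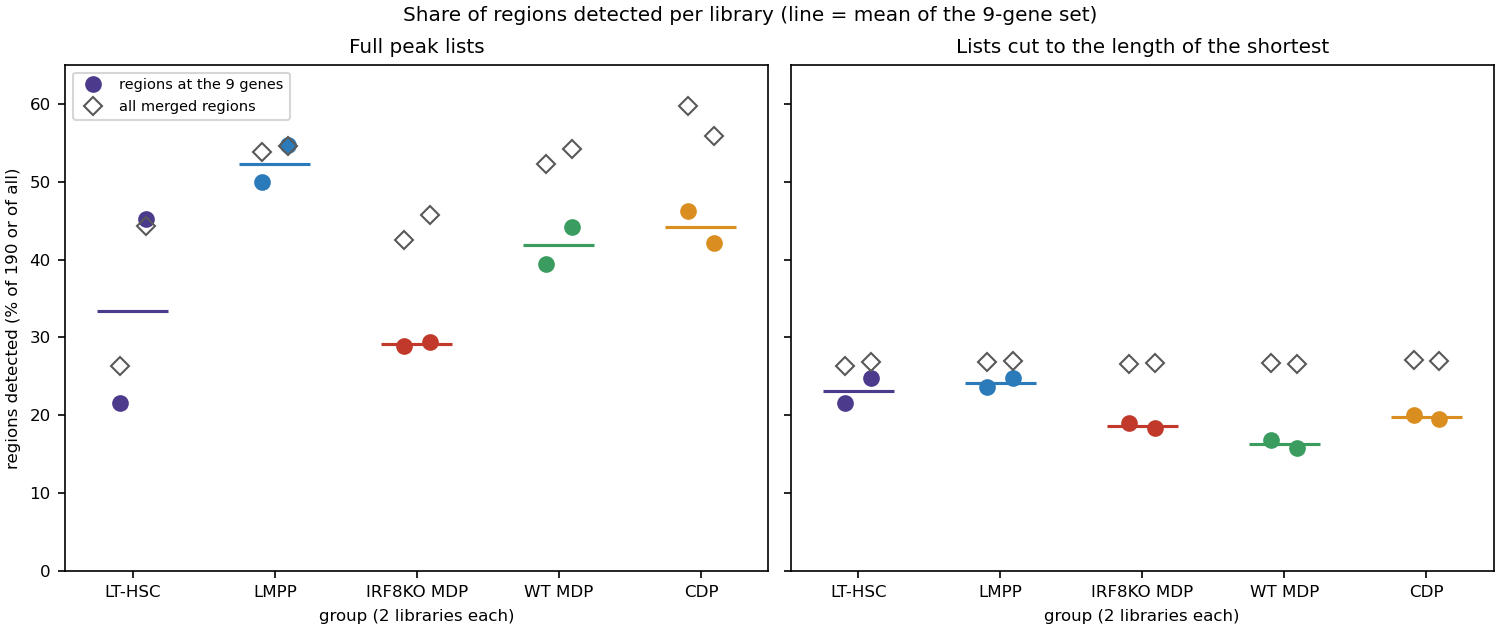
Percent of regions detected per library (y axis) by group (x axis), for the 190 regions of the 9 genes (filled circles, line at the mean of 2 libraries) and for all merged regions (open diamonds), with full lists on the left and with each list cut to the 31325 rows of the shortest on the right. On the left, the circles lie below the diamonds in every library of IRF8KO MDP, WT MDP and CDP; on the right, the IRF8KO MDP circles (18.9% and 18.4%) lie above the WT MDP circles (16.8% and 15.8%).

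A region was called gained when it was detected in both libraries of the group named first and in neither of the other group. It was called lost when only the other group's libraries, both of them, had it. The percentage of all merged regions called the same way is the background. In LMPP against LT-HSC, the step at which stem cells give rise to lymphoid-biased progenitors, 26 of the 190 regions were gained (13.7%, background 12.7%) and 5 were lost (2.63%, background 1.62%). The gains were spread over all 9 genes, with 7 at Mllt3, 4 at Msi2, 3 each at Hlf, Angpt1 and Vwf, 2 each at Procr and Slamf1, and 1 each at Fgd5 and Tek. The share of gains was therefore close to that of the genome.

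The 5 losses lay at 3 genes, and all 5 were also called at equal list length. Vwf had 3 of them, the region over its lower end, a region 12.1 kb above that end (chr6:125564517-125565651) and one at 31.1 kb (chr6:125583615-125584436). Another was inside Mllt3, 102.4 kb from its outer start (chr4:87930610-87931381), and one inside Slamf1, 6.3 kb from its start (chr1:171773108-171773778). Of the 5, 4 were detected in both LT-HSC libraries and in no other; the Vwf region at 12.1 kb was also detected in CDP replicate 1. At Vwf as a whole, 10 and 8 of 25 regions were detected in LMPP, against 6 and 13 in LT-HSC. The Vwf counts of the groups overlapped, although particular regions separated them.

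Leaving out LT-HSC replicate 1 changed the losses more than the gains. Against LT-HSC replicate 2 alone, 27 regions were gained in LMPP (14.2%, background 13%) and 25 were lost (13.2%, background 6.76%), of which 6 lay at Vwf, 5 each at Hlf and Angpt1, 3 each at Mllt3 and Msi2, 2 at Tek and 1 at Slamf1. Without LT-HSC replicate 2, 44 regions were gained (23.2%, background 23.6%), and without LMPP replicate 1, 49 (25.8%, background 18.5%). At equal list length, 8 regions were gained (4.21%, background 4.32%) and 8 were lost (4.21%, background 3.47%).

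In WT MDP against LMPP, the transcription factor gene Hlf and the receptor gene Tek lost regions and gained none. Of the 190 regions, 24 were lost (12.6%, background 10.6%) and 14 were gained (7.37%, background 10.3%). Hlf lost 6 of 21 and gained 0, Mllt3 lost 5 of 27 and gained 2, Msi2 lost 4 of 36 and gained 3, and Angpt1 lost 3 of 31 and gained 4. Tek lost 2 of 7 and gained 0, Vwf lost 2 and gained 2 of 25, Fgd5 and Procr each lost 1 and gained 1, and Slamf1 gained 1 and lost 0. At equal list length the counts were 17 lost (8.95%, background 6.04%) and 5 gained (2.63%, background 5.75%), so the share of losses was above and that of gains below the background under both list lengths. Only 6 of the 24 losses and 3 of the 14 gains were called again at equal length, so the calls there were mostly at other regions. Msi2 then lost 5, Hlf and Mllt3 3 each and Tek 2, and none of these 4 genes gained a region. Without LMPP replicate 1, 44 were lost (23.2%, background 15.2%), and without LMPP replicate 2, 38 (20%, background 14.6%). Without WT MDP replicate 1, 27 were gained (14.2%, background 14.6%).

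Hlf had 8 and 5 of its 21 regions detected in WT MDP, against 13 and 16 in LMPP, and 5 and 16 in LT-HSC. Peaks covered 7103 and 5618 bp at Hlf in WT MDP and 16898 and 16839 bp in LMPP, with means of 888 and 1124 bp and of 1300 and 1052 bp for each detected region. The difference thus lay mainly in the number of regions. The lost regions were a 3305 bp region 2.2 kb beyond the lower end of the gene (chr11:90332637-90335941), 4 regions inside the gene at 35.1, 21.1, 18.0 and 4.5 kb from the start, and 1 region 11.7 kb before the start. The first was detected in both LT-HSC and both LMPP libraries and in none of the other 6, and the region at 35.1 kb (chr11:90354939-90356749), at 21.9% and 22.2% of rows in LMPP, was lost at equal list length too. The start region and one 27.1 kb before it (chr11:90417475-90418589) were detected in all 10 libraries, and a neighbour (chr11:90419088-90420496) in all but LT-HSC replicate 1. CDP had 4 and 3 Hlf regions detected, and IRF8KO MDP 4 and 3.

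Tek had 1 and 1 of its 7 regions detected in WT MDP, against 5 and 3 in LMPP, and 2 and 6 in LT-HSC. The region that remained in WT MDP lies 29.5 kb into the gene (chr4:94768382-94769223) and was also detected in both LMPP and both CDP libraries and in IRF8KO MDP replicate 2, but in neither LT-HSC library. The 2 lost regions were the start and a region 162.2 kb from the start (chr4:94900710-94902291), beyond the gene's far end and nearest to Eqtn; both were detected in all 4 LT-HSC and LMPP libraries and in none of the other 6, and both were lost at equal list length. IRF8KO MDP replicate 1 had no Tek region detected.

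**Figure D3:**
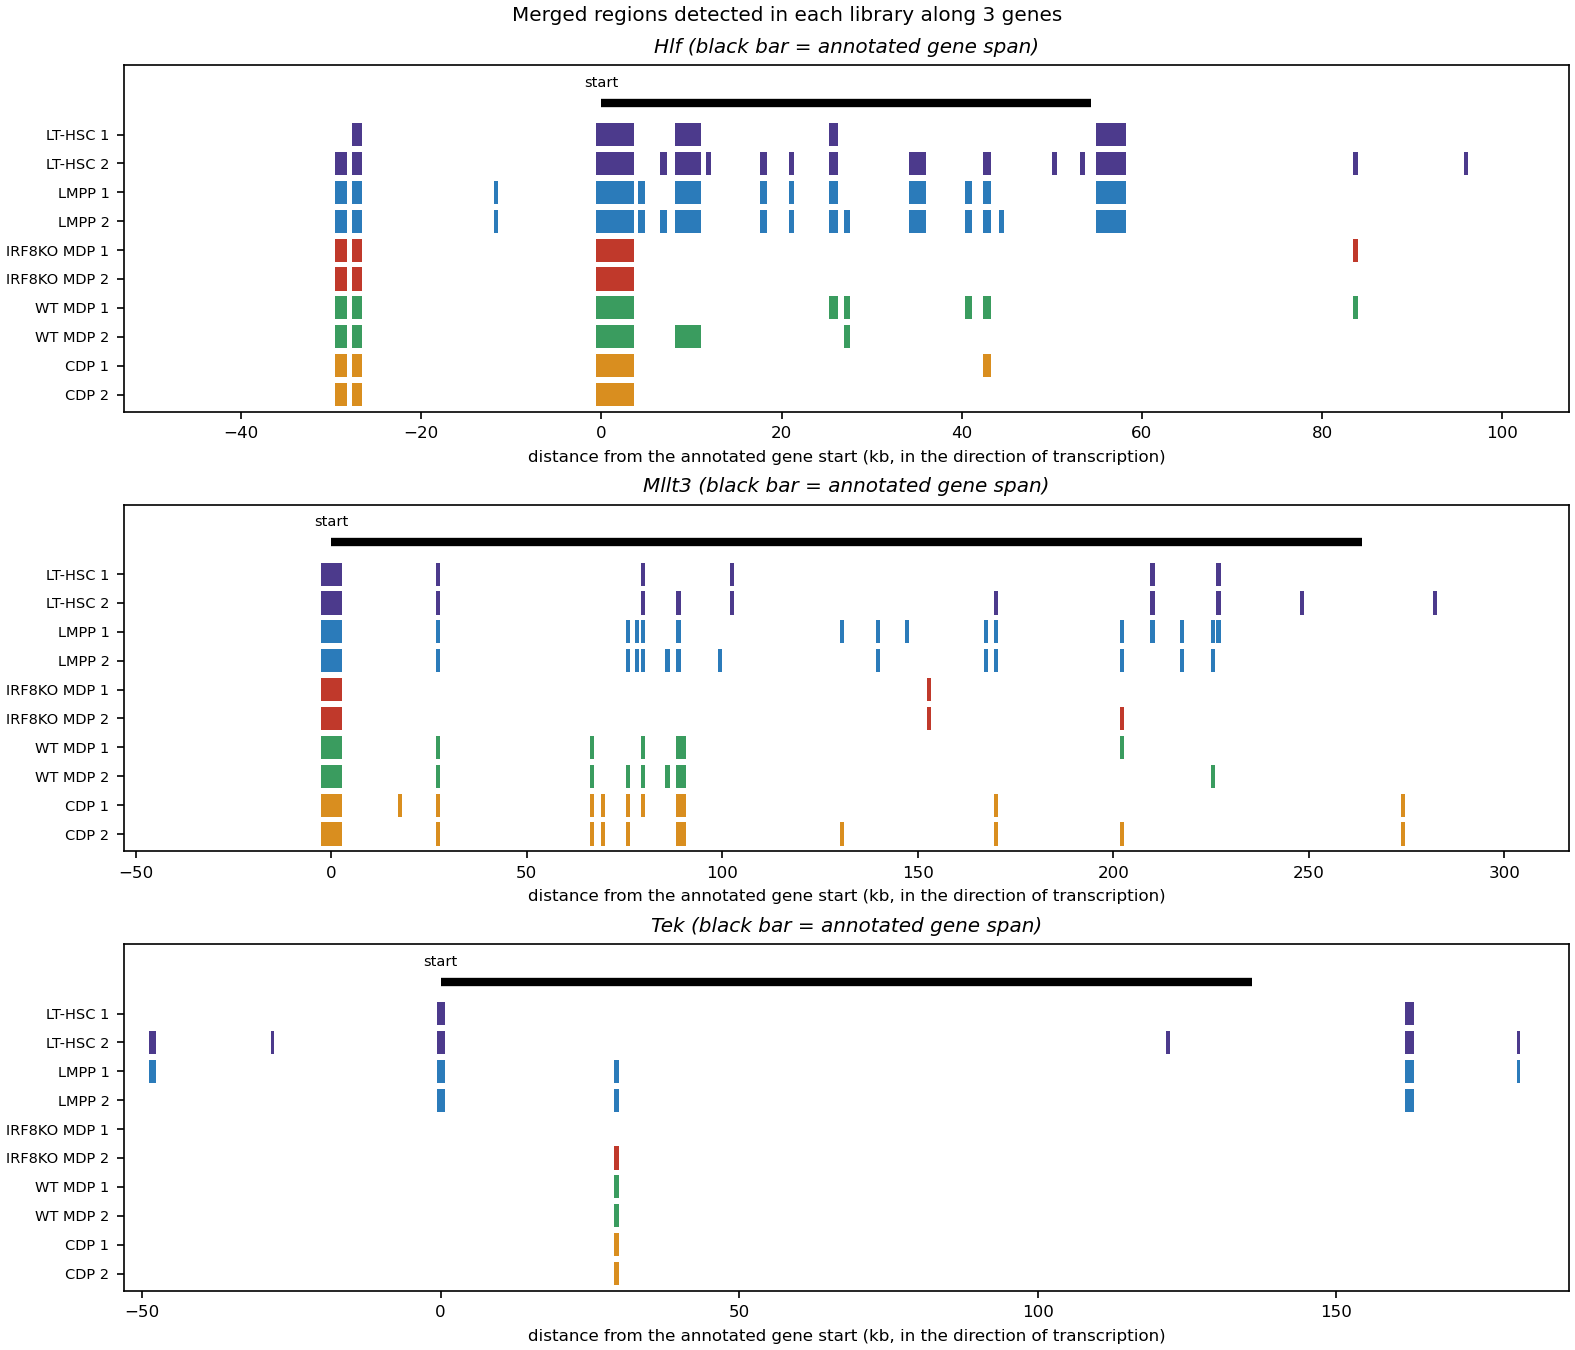
Regions detected in each library (rows) along Hlf, Mllt3 and Tek, by distance in kb from the annotated start in the direction of transcription; blocks are merged regions, the narrowest widened to stay visible, and the black bar is the gene. Hlf and Tek have fewer blocks in the 6 lower rows than in LT-HSC replicate 2 and both LMPP libraries, LT-HSC replicate 1 having 5 Hlf and 2 Tek blocks, and along Mllt3 the blocks at 66.7, 88.8 and 90.1 kb are present in WT MDP and CDP and absent from IRF8KO MDP.

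The gene of the ligand did not follow that of its receptor. Angpt1 had 12 and 13 of 31 regions detected in WT MDP, against 11 and 16 in LMPP, and 6 and 11 in LT-HSC. Its lost regions were at 13.6 kb (chr15:42437796-42438827) and 74.1 kb above the lower end of the gene and 14.3 kb below it. Its gained regions lay at 35, 111.3, 215.9 and 246.1 kb above the lower end, and the one at 215.9 kb (chr15:42639873-42641250) was detected in both IRF8KO MDP and both WT MDP libraries and in no other. The counts of WT MDP and LMPP overlapped, whereas both WT MDP counts lay above those of LT-HSC. So did the shares of all regions, 52.4% and 54.2% in WT MDP against 26.4% and 44.3% in LT-HSC. The ratio of the Angpt1 share to the share of all regions overlapped, at 0.739 and 0.774 in WT MDP and 0.733 and 0.800 in LT-HSC.

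Msi2, the longest of the genes at 378925 bp, had 14 and 15 of 36 regions detected in WT MDP, against 18 and 21 in LMPP, and 6 and 13 in LT-HSC. A region 115.5 kb from the start (chr11:88602300-88603222) was detected in both LT-HSC and both LMPP libraries and in no other, standing at 25.2% and 17.1% of rows in LMPP. One at 93.0 kb (chr11:88624653-88625824) was detected in LT-HSC replicate 2 and both LMPP libraries. At the far end of the gene, the regions at 356.7 and 334.8 kb were found in the 4 WT MDP and CDP libraries alone. The other lost regions lay at 109.4 kb and 1.9 kb, and the third gain lay 402.7 kb from the start, beyond the gene's end and nearest to Ccdc182.

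Mllt3 had 7 and 9 of 27 regions detected in WT MDP, against 16 and 14 in LMPP, and 6 and 10 in LT-HSC. All 5 of its lost regions lay between 78.2 and 217.5 kb from the outer start, and 4 of them had been gained in LMPP against LT-HSC, comparisons that share the LMPP libraries. Its 2 gained regions, at 90.1 and 66.7 kb, were likewise found in the 4 WT MDP and CDP libraries alone. The inner start was not among the called losses because LMPP replicate 2 had no peak there.

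Slamf1, Procr, Fgd5 and Vwf each had as many gains as losses or more at full list length. At Slamf1, 8 and 14 of 18 regions were detected in WT MDP, against 7 and 9 in LMPP, and 6 and 7 in LT-HSC. Of the 18 regions, 10 were nearer to a neighbouring gene, and the gained region, 54.4 kb from the Slamf1 start, was nearest to Cd84, another member of the SLAM receptor family. At Procr, 8 and 10 of 12 regions were detected in WT MDP, against 6 and 8 in LMPP, and 1 and 4 in LT-HSC; 11 of the 12 lay outside this 4354 bp gene and 4 were nearest to it. At Fgd5, 7 and 7 of 13 regions were detected in WT MDP, against 9 and 9 in LMPP, and 3 and 6 in LT-HSC. The lost Fgd5 region lay 13.6 kb into the gene (chr6:91992227-91992991), and the gained one, 122.0 kb from the start (chr6:92100302-92101684), was nearest to Nr2c2. At Vwf, 10 and 10 of 25 regions were detected in WT MDP, against 10 and 8 in LMPP.

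In CDP against WT MDP, the commitment to dendritic cells, few regions of these genes were called. Of the 190 regions, 7 were gained (3.68%, background 6.48%) and 2 were lost (1.05%, background 3.64%), so both shares were below the background. Mllt3 gained 3, Msi2 gained 2 and Angpt1 and Vwf gained 1 each, while Hlf and Angpt1 lost 1 each and Procr, Fgd5, Tek and Slamf1 had no call in either direction. The Angpt1 region at 215.9 kb, detected in both WT MDP libraries, was lost in CDP at full and at equal list length. At equal length 6 regions were gained (3.16%, background 2.82%) and 2 were lost (1.05%, background 2.51%). None of the 7 gains, and 1 of the 2 losses, was among them. Mllt3 had 11 and 11 regions detected in CDP, against 7 and 9 in WT MDP, and Slamf1 12 and 12, against 8 and 14. With WT MDP replicate 1 left out, 12 regions were lost (6.32%, background 7.04%). With WT MDP replicate 2 left out, 16 were gained (8.42%, background 9.38%) and 8 lost (4.21%, background 6.12%). Without CDP replicate 1, 6 were lost (3.16%, background 5.54%), and without CDP replicate 2, 13 were gained (6.84%, background 11%).

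Over the whole path, CDP against LT-HSC, 37 regions were gained (19.5%, background 24.1%) and 13 were lost (6.84%, background 5.4%). Hlf lost 3 and gained 0, Tek lost 2 and gained 1, Mllt3 lost 3 and gained 5, and Vwf lost 2 and gained 5. Slamf1 gained 7 and lost 1, Msi2 gained 8 and lost 1, Angpt1 gained 5 and lost 1, Procr gained 4 and lost 0, and Fgd5 gained 2 and lost 0. All 13 losses were also called at equal list length, at which 19 regions were lost (10.0%, background 7.67%) and 12 gained (6.32%, background 9.1%). Without LT-HSC replicate 1, 43 regions were lost (22.6%, background 14.3%) and 38 gained (20%, background 24.3%). Hlf then lost 12 of 21 regions and Tek 6 of 7, the highest shares among the 9 genes. These losses rest on LT-HSC replicate 2 alone. The Hlf ones stood at 13.7% to 97.9% of rows in its list, most of them at 86.5% or beyond. At equal list length, with both LT-HSC libraries, Hlf lost 3 regions and Tek 2.

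**Figure D4:**
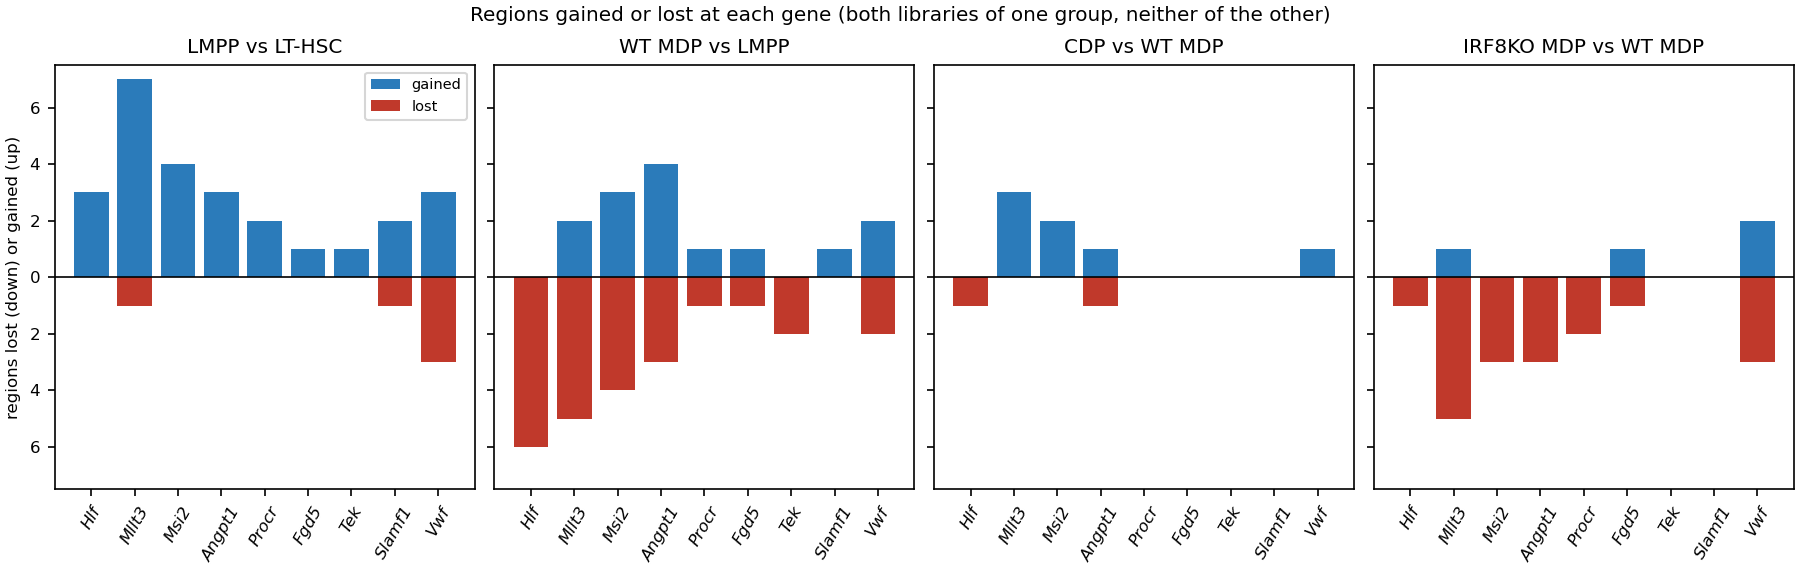
Regions gained (blue, up) and lost (red, down) at each gene (x axis) in 4 comparisons, as counts (y axis); the first-named group is set against the second, and a call needs both libraries of one group and neither of the other. Mllt3 has the tallest gain in LMPP (7), Hlf the deepest loss in WT MDP (6), and Mllt3 the deepest loss in IRF8KO MDP (5).

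The last comparison asked what differs without IRF8, the interferon regulatory factor that directs monocyte and dendritic cell development, within the MDP gate. In IRF8KO MDP against WT MDP, 18 of the 190 regions were lost (9.47%, background 8.99%) and 4 were gained (2.11%, background 2.69%), shares close to those of all regions. Mllt3 lost 5 of 27 and gained 1, Msi2, Angpt1 and Vwf lost 3 each, Procr lost 2, and Hlf and Fgd5 lost 1 each. Vwf gained 2 and Fgd5 gained 1, and Tek and Slamf1 had no call. Total tags were 4790046 and 5313729 in IRF8KO MDP and 5394861 and 5328234 in WT MDP, and tags in peaks were 43.72% and 43.94% against 51.25% and 53.74%; of 258 regions of monocyte and dendritic progenitor markers, 54.3% to 61.6% were detected in IRF8KO MDP and 67.8% in both WT MDP libraries. The part of these differences in the losses was not tested.

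The lost regions were mostly low in the WT MDP lists, with a median row position of 74.7% (range 25.5% to 98.3%). With every list cut to 31325 rows, 3 regions were lost (1.58%, background 3.56%) and 5 gained (2.63%, background 2.93%), and only 2 of the 18 losses were called again, 1 at Mllt3 and 1 at Fgd5. At that length the share of members detected was 18.9% and 18.4% in IRF8KO MDP, against 16.8% and 15.8% in WT MDP, so the direction of the difference turned. Without WT MDP replicate 1, 33 regions were lost at full length (17.4%, background 13.6%), and without IRF8KO MDP replicate 1, 7 were gained (3.68%, background 5.86%).

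Mllt3 had 2 and 3 of 27 regions detected in IRF8KO MDP, against 7 and 9 in WT MDP, and peaks covered 2687 and 5367 bp there, against 8116 and 8743 bp. The groups did not overlap in either measure, nor did their shares of all regions (42.5% and 45.8% in IRF8KO MDP, 52.4% and 54.2% in WT MDP). The ratio of the Mllt3 share to the share of all regions was 0.174 and 0.243 in IRF8KO MDP, against 0.495 and 0.615 in WT MDP. At equal list length Mllt3 lost 1 region and gained 0. The 5 lost regions lay at 27.3, 66.7, 79.7, 88.8 and 90.1 kb from the outer start. The one at 88.8 kb (chr4:87944077-87945063), at 35.1% and 35.7% of rows in WT MDP, was lost at both list lengths and was detected in LT-HSC replicate 2 and in both libraries of LMPP, WT MDP and CDP. The one at 27.3 kb (chr4:88005756-88006524) was detected in all 8 libraries other than IRF8KO MDP. The outer start was detected in both knockout libraries, and a region at 152.8 kb (chr4:87880324-87880978) was detected in the 2 IRF8KO MDP libraries alone.

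At Fgd5, a region 3.3 kb before the start (chr6:91975167-91976201) was detected in both libraries of LMPP, WT MDP and CDP and in neither of IRF8KO MDP or LT-HSC, and its loss held at equal list length. At Procr, the region 8.2 kb before the start (chr2:155742099-155743871) was detected in the 8 libraries other than IRF8KO MDP. Of the 4 gains, the Vwf flank region 47.0 kb below the gene's lower end (chr6:125505539-125506332), nearest to Cd9, was called at both list lengths and stood at 43.3% and 43.2% of rows in IRF8KO MDP. These calls at single regions rest on detection in 2 libraries a group and were not tested, as the lists hold no signal per peak.

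**Figure D5:**
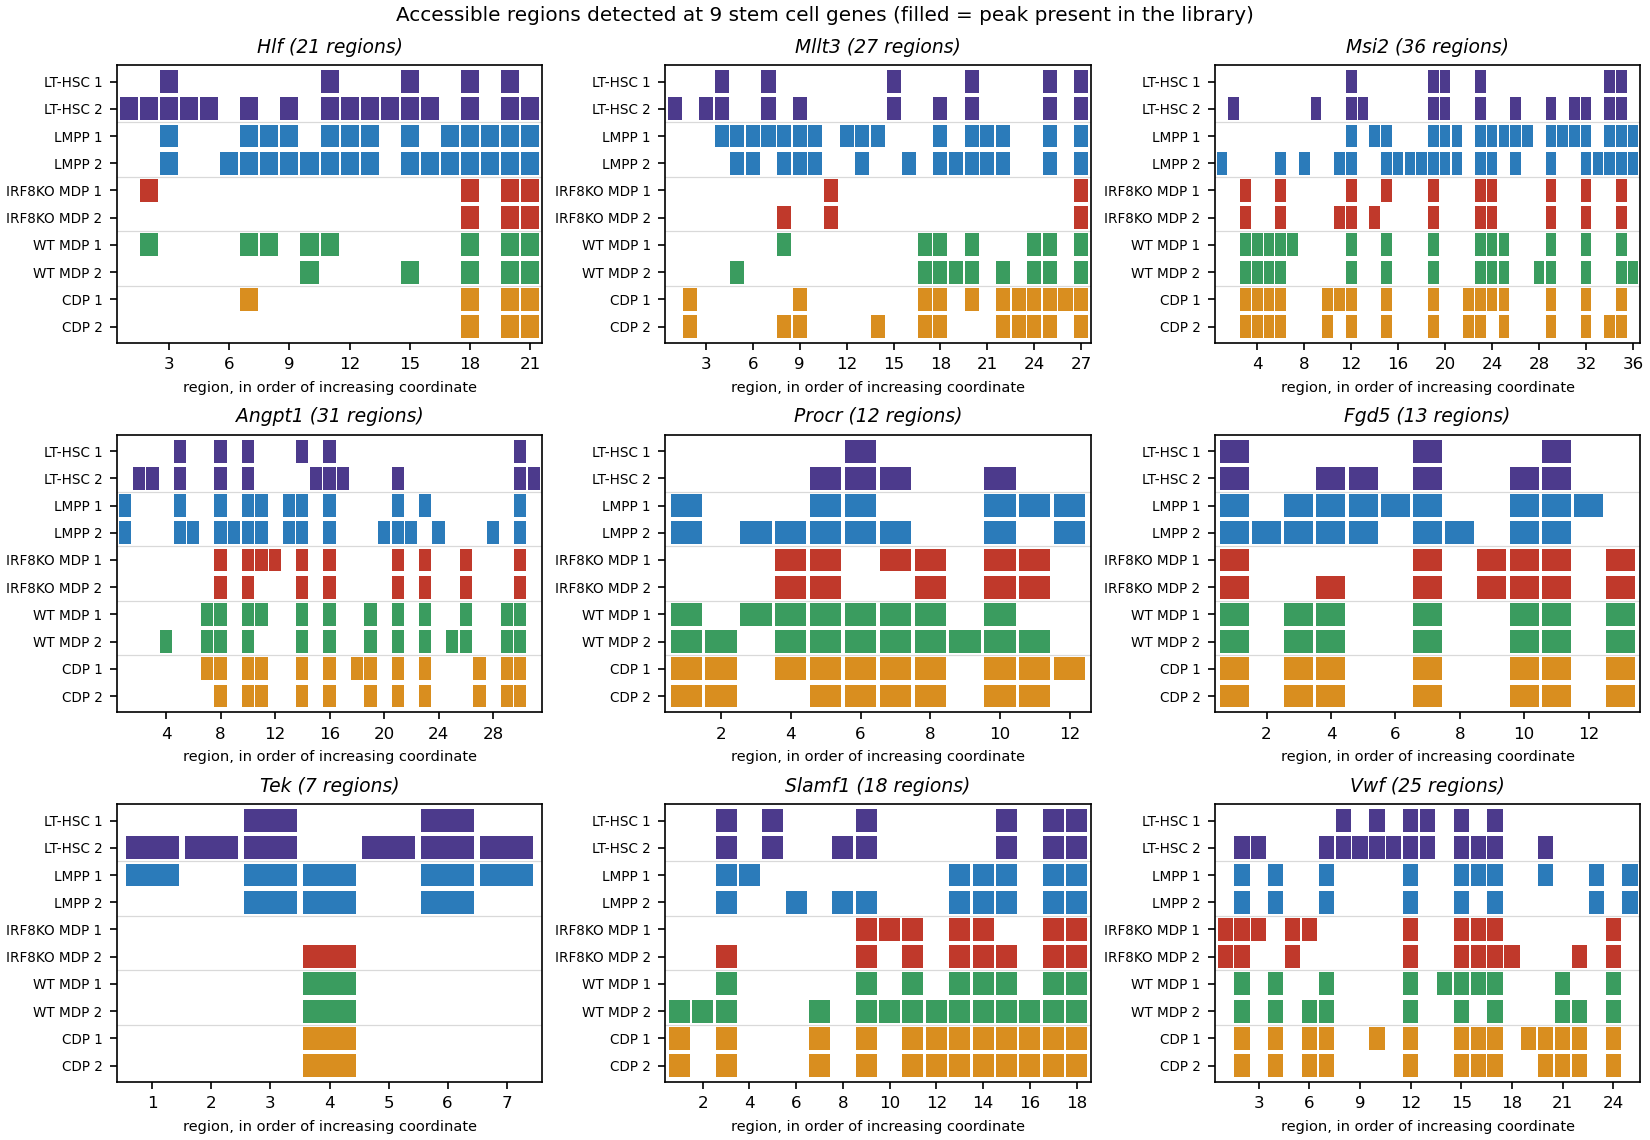
Presence of a peak (filled cell) in each library (rows) for each of the 190 regions in order of increasing coordinate (columns), 1 panel per gene. Columns filled from top to bottom are the 19 regions found in all 10 libraries, and the Tek panel is nearly empty below the LMPP rows.

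Replicates were alike in all 5 groups for 68 of the 190 regions (35.8%, against 44.9% of all regions), and these fell into 12 patterns. After the 19 regions found everywhere, the most frequent were 11 regions found in LMPP alone (5.79% of the members, 3.78% of all regions), of which 4 lay at Mllt3 and 2 each at Angpt1, Hlf and Vwf. Next came 7 in WT MDP and CDP (3.68% and 3.89%), and 5 each in CDP alone (2.63% and 4.62%), in all 3 of WT MDP, CDP and IRF8KO MDP (2.63% and 2.19%), and in LT-HSC and LMPP (2.63% and 2.01%). The regions shared by LT-HSC and LMPP were 2 at Tek and 1 each at Angpt1, Hlf and Msi2. LT-HSC alone had 4 regions (2.11% and 1.30%), 2 of them at Vwf and 1 each at Mllt3 and Slamf1, and IRF8KO MDP alone had 4 (2.11% and 1.76%). Leaving out LT-HSC replicate 1, 22 regions were found in LT-HSC replicate 2 and in no other group (11.6% and 4.96%). Apart from the 4 regions of LT-HSC alone, these were peaks of that single library. Among all members, regions in 1 library stood at a median row position of 87.3%.

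A pair of further lists of stem cell genes was read the same way. At 24 other regulators with 531 regions, 73 regions were lost and 40 gained in WT MDP against LMPP (13.7% and 7.53%, background 10.6% and 10.3%). Losses outnumbered gains at 10 genes and the reverse held at 7. Mecom lost 21 of 45 and gained 0, Prdm16 lost 11 of 30 and gained 1, and Runx1 gained 10 of 42 and lost 1. At 18 other surface and niche genes with 247 regions, of which 6 are also members here, 13 were lost and 31 gained (5.26% and 12.6%), and gains outnumbered losses at 9 genes and the reverse held at 6. Cd9, Cxcr4 and Eng each gained 4 and lost 0. Mecom and Prdm16 held 32 of the regulators' 73 losses, and the other regulators lost 41 and gained 39 of 456 regions (8.99% and 8.55%). At equal list length (background 6.04% lost and 5.75% gained), the regulators lost 37 and gained 26 of 531 (6.97% and 4.9%). The surface genes then lost 13 and gained 10 of 247 (5.26% and 4.05%), both shares below the background. The excess of gains at the surface genes thus did not hold at that length. In IRF8KO MDP against WT MDP (background 8.99% lost and 2.69% gained), the regulators lost 44 and gained 11 (8.29% and 2.07%), shares close to the background. The surface genes lost 30 and gained 10 (12.1% and 4.05%). This comparison was not made for these lists at equal list length, at which the members' losses fell from 18 to 3.

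The summed number of detected members over the 10 libraries was 41 and 86 in LT-HSC, 95 and 104 in LMPP, 55 and 56 in IRF8KO MDP, 75 and 84 in WT MDP, and 88 and 80 in CDP. Among 13599 other protein-coding genes with at least 8 regions within 50 kb, the genes whose counts were most alike by Pearson's r over these 10 libraries were Kcnt1 (0.983), Neurl1a (0.981), Alk (0.975), Atp23 (0.970) and Bcl2l14 (0.968). They are given as a description, since all counts share the depth and list length of the same libraries.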

How the data were processed

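The authors deposited 1 list of ATAC-seq peaks for each of the 10 libraries, and no reads or tag counts per peak were used here. Bowtie 1.1.2 and HOMER 4.9 with the builds mm10 and GRCm38 are named, per the submitters' processing notes. HOMER was run on each library alone, the command naming no control, with 500 bp as the initial peak size, 1000 bp between peaks, FDR threshold 0.001, signal 4-fold over the local 10000 bp and 1 tag per position at most, per the file headers. Peaks were stitched into regions of variable length, per the file headers. No source used here states a shift of reads for the transposase offset. The score column deposited by the authors holds 1 in every row and was not used as a strength.

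All peaks on chromosomes 1 to 19 and X that shared 1 bp or more were joined into merged regions (Python 3.11.15, numpy 2.4.6, scipy 1.17.1). Gene spans, starts and upstream sequences came from RefSeq tables of GRCm38.p6, which give starts for 7 of the 9 genes (Angpt1 and Vwf have none there). Without strand for those 2, distances run from the lower-coordinate end. Coordinates are 1-based. Detection means that a library's own list has a peak in the region, and the call rule compared 2 libraries with 2; merging and calling were tested on simulated lists. No depth per peak is given, so no interval is attached to a peak. The members, gene lists, comparisons and settings were chosen with earlier results of these data known. Named genes are the 9 members, the 3 genes with the largest net change in a list and the 5 genes most alike in pattern. Genes of sorting antigens and of other cell types are also named, as a check of the gates, some chosen after their values were seen. Alternatives were other windows, other overlaps, equal list length (also for the other stem cell lists, chosen after seeing the data, as were the patterns without LT-HSC replicate 1), regions away from gene ends and leaving out each library.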

Additional observations from a re-analysis of the deposited data

How the results depend on the processing

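Detection depends on depth, and no model could be fitted to peak positions. With the replicate numbers as a block, the differences in the share of members detected kept their values (LMPP minus LT-HSC 18.9, WT MDP minus LMPP -10.5, CDP minus WT MDP 2.37, CDP minus LT-HSC 10.8 and IRF8KO MDP minus WT MDP -12.6 percentage points) by construction, and the smallest p that sign flips of 2 pairs can give is 0.5. The planned 50% overlap changed no value, because every peak lies whole inside its merged region, so a stricter one, in which peaks cover at least 50% of the region, was chosen after seeing the data.

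At equal list length, gained counts were 8 (LMPP against LT-HSC), 5 (WT MDP against LMPP) and 12 (CDP against LT-HSC), and lost counts 8 (LMPP against LT-HSC) and 3 (IRF8KO MDP against WT MDP); fewer rows were kept. The share difference then turned to -3.42 points for CDP minus LT-HSC and to 2.37 for IRF8KO MDP minus WT MDP. The shares of all regions beside the equal length counts are given with each comparison above. With 50% of the region covered, 12 of 190 regions were gained in CDP against WT MDP (6.32%), a setting for which no background was taken. Within 20 kb, 2 of 154 were gained in IRF8KO MDP against WT MDP (1.30%, background 2.69%). The cause was not tested.

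With each library left out in turn, gained and lost counts ranged from 27 to 49 and 5 to 25 (LMPP against LT-HSC), 16 to 27 and 28 to 44 (WT MDP against LMPP), 9 to 16 and 2 to 12 (CDP against WT MDP), 38 to 52 and 13 to 43 (CDP against LT-HSC), and 5 to 7 and 20 to 33 (IRF8KO MDP against WT MDP); a single library then decides for its group. The share difference ranged from 7.11 to 30.8, -12.9 to -8.16, 0 to 4.74, -1.05 to 22.6 and -15 to -10.3 points in the same order of comparisons; it was -1.05 without LT-HSC replicate 1 and 0 without WT MDP replicate 1.

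Of 225 net changes of single genes under alternatives other than that planned overlap, 151 kept their sign within 1.5 times or stayed at 0. Another 65 moved by more or went to or from 0, and 9 changed sign. The sign changed in LMPP against LT-HSC for Slamf1 (-1 within 20 kb and -1 at equal list length) and Mllt3 (-1 at equal length), in CDP against LT-HSC at equal length for Mllt3 (-2), Msi2 (-1), Procr (-1) and Vwf (-1), and in IRF8KO MDP against WT MDP at equal length for Msi2 (2) and Vwf (2).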
